A study of Mus musculus with 6 samples.

Results

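The cytosolic ribosome of the mouse is built from RNA and from the products of the Rpl genes, for the large (60S) subunit, and the Rps genes, for the small (40S) subunit. The genes described here were all rows of a single-cell count table whose symbol starts with Rpl or Rps followed by a digit, or is Rplp0 to Rplp2 or Rpsa, without the S6 kinases (Rps6k), the rows named as pseudogenes (-ps) and the symbols ending in l1. This rule took 85 of 20234 rows, of which 49 are Rpl genes and 36 are Rps genes or Rpsa. It left out 35 rows, namely 23 pseudogenes, 10 S6 kinases and 2 ending in l1. Of the 85 rows, Rps19bp1 encodes a binding partner of a ribosomal protein and not a ribosomal protein. The row Rps4y2 carries a symbol that RefSeq now lists under Rps4l, a transcribed pseudogene. Rps3a2 and Rps3a3 are annotated as pseudogenes too, but their symbols lack -ps and the rule kept them. In the retained cells 84 of the 85 rows had a unique molecular identifier (UMI, the tag that counts 1 captured transcript), and Rpl39l had none.

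The cells came from the CA1 region of the hippocampus of male C57Bl6 mice at P28 and were read by Drop-seq, which captures the 3′ ends of polyadenylated transcripts in droplets. Placebo mice 1, 3 and 5 were injected once with placebo, and EPO mice 2, 4 and 6 once with 5000 IU/kg of recombinant human erythropoietin (rhEPO), and all were sacrificed after 6 h. Each mouse is 1 library of its own, and tests between mice count the libraries as separate animals. Mice 1 and 4 shared barcodes with like profiles, as described below. Whether the cells of these 2 libraries are fully separate was not tested. The labels add D1 (mice 1, 2 and 3) or D2 (mice 4, 5 and 6), whose meaning is not stated. Barcodes were retained if they had over 1000 genes but no more than 8000, and if mitochondrially encoded (mt-) genes took no more than 40% of their UMIs. This left 390 placebo and 583 EPO cells with 6910600 UMIs, of which 69957 (1.01%) fell on ribosomal protein genes. The libraries held 43 to 271 retained cells and 204479 to 1948490 UMIs, with medians of 4088 to 4924 UMIs per cell.

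Ribosomal proteins are needed in near-equal numbers, and their mRNAs are short, abundant and under common control. Most carry at the very 5′ end a C followed by a run of pyrimidines, the terminal oligopyrimidine (TOP) motif, through which mTOR signaling sets how strongly they are translated. Because the mRNAs are abundant, they have been copied back into the genome many times as processed pseudogenes, whose sequence can be the same as that of the parent over long stretches. In the brain, neurons also carry ribosomes into dendrites and axons, and glia into their fine processes.

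The start of the transcript is shown for 5 of these genes, because the motif there is the sequence feature they are known for. The windows run from 10 bases before to 20 bases from the annotated start in RefSeq (GRCm38.p6), and capitals mark the longest run of a C and at least 4 pyrimidines. Rps6 (chr4:86857348-86857377, minus strand) and Rps27 (chr3:90213629-90213658, minus strand) have the run at the annotated start. Rps9 (chr7:3704031-3704060, plus strand) and Rpl13a (chr7:45128726-45128755, minus strand) have it a few bases before or after. Rpl24 (chr16:55966265-55966294, plus strand) has no such run in the window.
Rps6: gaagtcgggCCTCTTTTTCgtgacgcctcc
Rps27: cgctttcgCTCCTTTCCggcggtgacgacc
Rps9: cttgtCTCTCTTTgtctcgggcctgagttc
Rpl13a: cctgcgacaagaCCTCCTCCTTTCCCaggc
Rpl24: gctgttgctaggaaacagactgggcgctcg
Of the 62 ribosomal protein genes with a RefSeq window, 13 (21.0%) began exactly with a C and at least 4 pyrimidines on the transcribed strand, against 3.00% of 12962 other genes and 3.09% of all genes. The other 23 rows had no window in the table used. A match of these letters describes the annotated start and not a measured one.

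Before any comparison, 2 libraries stood apart in these genes. Ribosomal protein genes took 1.499% of the UMIs in placebo mouse 1 and 1.47% in EPO mouse 4. They took 0.759% in placebo mouse 3, 0.598% in placebo mouse 5, 0.602% in EPO mouse 2 and 0.680% in EPO mouse 6. Among the other 4 libraries mouse 3 was the highest, with an exact 95% interval (Clopper-Pearson, for counting error only) of 0.721% to 0.797%. Mice 1 and 4, of different treatment and different D number, thus lay apart from the other 4 beyond counting error. The barcodes at or below the gene limit, among which empty droplets with free RNA are common, showed the same split, with 1.47% and 1.501% of UMIs other than mt- in mice 1 and 4 and 0.536% to 0.821% in the other mice. Mice 1 and 4 also shared 59 of their 1000 barcodes, where other pairs of mice shared 3 to 9. Of these, 26 barcodes were retained in both mice and none in any other pair. The profiles of the same barcode in mouse 1 and mouse 4 correlated at 0.636 to 0.871 (median 0.763). Different barcodes among these 26 correlated between the 2 mice at a median of 0.408 and at most 0.746, so the ranges overlapped. For the same barcode, mouse 4 held a median of 0.259 of the UMIs that mouse 1 held. Results that rest on mice 1 and 4 are therefore also given without them.

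The gap was unequal among the genes. In 40 of the 85 (47.1%), the lower of mice 1 and 4 exceeded the highest of the other mice by more than 2-fold on the scale of log2(CPM + 1), where CPM is UMIs per 1000000 UMIs of the mouse, and in 17 by more than 8-fold. The same held for 36 of 10909 other genes (0.330%), and no other pair of mice showed such a gap in any ribosomal protein gene. Rps6, the substrate of the S6 kinases, had 208, 4.89 and 6.18 CPM in the placebo animals (mice 1, 3 and 5 in this order, here and below) and 2.10, 203 and 5.77 CPM in the EPO animals (mice 2, 4 and 6). Rpl10, an X-linked gene whose protein joins the 60S subunit late in assembly, had 118, 0 and 2.32 CPM in the placebo mice and 4.21, 125 and 2.16 CPM in the EPO mice. Each of these genes was thus near absent in 4 libraries and abundant in 2. Rps27a, which encodes a ubiquitin fusion, had 253 and 258 CPM in mice 1 and 4 and 14.7 to 18.02 CPM in the others. In Rpl11 the values were 252 and 254 CPM against 8.50 to 34.2 CPM, and in Rpl5, which like Rpl11 can bind Mdm2, they were 231 and 211 CPM against 19.6 to 55.5 CPM.

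Other ribosomal protein genes were level across all 6 libraries. Rpl4, the 60S gene with the most UMIs, had 373, 445 and 451 CPM in the placebo animals and 322, 369 and 444 CPM in the EPO animals. Mice 1 and 4 thus lay among the other mice in this gene. The highest mean levels were those of Rpl4 (401 CPM), Rps14 (373 CPM), Rpl13a (316 CPM), Rplp1 (305 CPM) and Rps3 (271 CPM), none of which had a gap over 2-fold. The lowest mean levels among rows with a UMI were those of Rpl3l, a muscle paralog of Rpl3 (1.35 CPM), the Rps3a copies Rps3a2 (3.52 CPM) and Rps3a3 (6.15 CPM), Rps28 (23.9 CPM) and Rpl29 (32.8 CPM). This order holds for the mean over all 6 mice, since in mice 2, 3, 5 and 6 Rps6 (2.10 to 6.18 CPM) and Rpl10 (0 to 4.21 CPM) lay below Rpl29 (12.4 to 44.0 CPM). These levels are UMI counts of 3′ ends, which do not grow with transcript length.

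The size of the gap moved with the number of annotated pseudogenes, of any type, that resemble the gene. A copy was counted when a pseudogene transcript (GENCODE vM21, GRCm38) from another locus matched over at least 100 bases at 95% identity or more. The match could lie in the last 300 bases of the gene's transcripts or in the 300 bases around the stop codon. Of the 84 rows that could be matched, including Rps19bp1, Rps3a2 and Rps3a3, 79 (94.0%) had a copy by this measure, against 7.37% of other genes. A gap over 2-fold was found in 0 of 12 ribosomal protein genes with at most 1 copy, in 2 of 11 with 2 or 3 copies, in 16 of 34 with 4 to 9 and in 22 of 27 with 10 or more. Across the 80 genes with at least 50 UMIs, Spearman's rho between copies and gap was 0.58, a description over genes that share the libraries. Single genes departed from it. Rps2, with 44 copies, had 237 and 240 CPM in mice 1 and 4 and 112 to 186 CPM in the others, and Rpl29, with 33 copies, showed no gap. Rpl28, with 4 copies, had 109 and 95.5 CPM against 3.15 to 4.89 CPM. Of the 36 other genes with a gap over 2-fold, 23 had a copy, among them Gapdh, Actg1, Ppia and Fau, which encodes the ribosomal protein Rps30 as a fusion. The rest had 0 copies and still showed the gap. Among them, Igf2 had 43.5 and 61.6 CPM in mice 1 and 4 and 3.09 to 10.5 CPM in the others. Col1a2 had 26.7 and 22.6 CPM against 0.773 to 4.89 CPM.

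**Figure D1:**
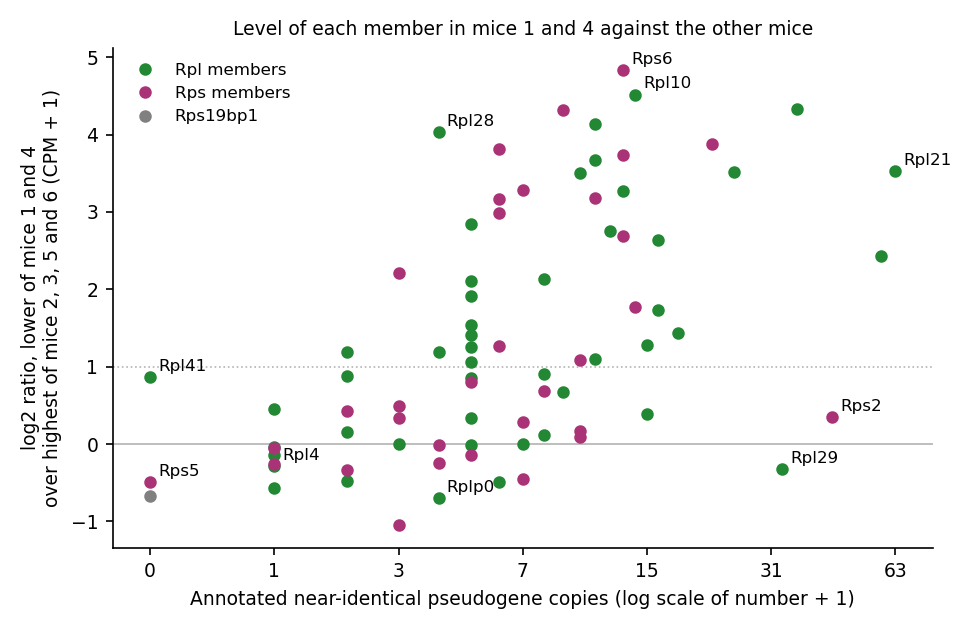
Each point is 1 ribosomal protein gene with at least 50 UMIs. The horizontal axis gives its number of near-identical annotated pseudogenes (log scale of the number plus 1), and the vertical axis the log2 ratio, at CPM + 1, of the lower of mice 1 and 4 over the highest of mice 2, 3, 5 and 6. The dotted line marks 2-fold. Genes with at most 1 copy all lie below it, and 22 of 27 genes with 10 or more copies lie above it.

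The likeness of copy and parent is shown on the last 30 coding bases of Rps6 and Rpl10, the pair with the widest gaps. The genes lie at chr4:86854660-86857412 (Rps6, minus strand) and chrX:74270812-74273135 (Rpl10, plus strand), and capitals mark bases of a copy that differ from the gene. The pseudogenes Gm11604 (chr11:98185366-98186107, plus strand) and Gm14138 (chr2:119187517-119188261, plus strand) copy Rps6. Gm2387 (chr15:52089308-52089953, plus strand) and Gm11450 (chr2:162805590-162805922, plus strand) copy Rpl10.
Rps6: acttctaagtctgagtccagtcaaaaatga
Gm11604: acttctaagtctgagtccagtcaaaaatga
Gm14138: acttctaagtctgagtccagtcaGaaatga
Rpl10: ctggacaagtggagagccctgcattcctga
Gm2387: ctggacaagtggagagccctgcattcctga
Gm11450: ctgAacaagtggagagccctgcattcctAa
Of the copies checked, 6 of 11 for Rps6 and 3 of 13 for Rpl10 were identical over these 30 bases. Copies on the gene's own chromosome and on a further chromosome were left out of this check. A read that lies wholly within these 30 bases cannot be placed between the gene and an identical copy by its sequence. The remaining copies checked differed there, and longer reads or reads from elsewhere in the transcript were not examined. The read length of each library and the handling of reads with several matches are not given in the sources used here, and their part in the gap was not tested. Over the 23 ribosomal protein genes with at most 3 copies, the share of UMIs was 0.452% and 0.448% in mice 1 and 4 and 0.318% to 0.381% in the other mice, so a smaller gap remained. This set is used below as a second measure, chosen after seeing the data.

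The cell classes differed in how much of their RNA these genes took. Clusters were built without ribosomal protein and mt- genes and named by markers, which gave 619 glutamatergic-like cells, 129 oligodendrocyte-like, 77 astrocyte-like, 46 OPC-like (oligodendrocyte precursor), 45 GABAergic-like, 39 endothelial-like and 18 microglia-like cells. The CA1 pyramidal markers Wfs1, Fibcd1, Pou3f1 and Mpped1 were all found in glutamatergic-like cells. The OPC-like cluster is mixed. All 6 mural markers were found in it, at a summed 3196 to 8970 CPM per mouse, beside all 6 OPC markers at 3121 to 4452 CPM, and Rgs5 and Myh11, genes of pericytes and smooth muscle, led it together with Pdgfra. The endothelial-like cluster also held all 5 blood markers, at 118 to 91591 CPM per mouse, of which the hemoglobin genes were the bulk. The part of the mural and blood cells in the shares below was not tested.

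Over the mice with at least 5 cells of a class, the mean share of ribosomal protein UMIs was lowest in both neuronal classes. The mean share was highest in endothelial-like and microglia-like cells. It was 0.810% ± 0.350 (SD, n = 6) in glutamatergic-like cells and 0.701% ± 0.373 (n = 3) in GABAergic-like cells. Astrocyte-like cells had 0.857% ± 0.329 (n = 6) and oligodendrocyte-like cells 0.954% ± 0.457 (n = 6). OPC-like cells had 2.21% ± 1.24 (n = 4), endothelial-like cells 2.82% ± 1.66 (n = 5) and microglia-like cells 2.48% ± 0.724 (n = 2). These means cover different mice, and within each class mice 1 and 4 were the highest wherever they had 5 cells. In endothelial-like cells the shares were 3.98% and 5.18% in mice 1 and 4 and 1.57% to 1.73% in mice 5, 2 and 6. The neighbours GABAergic-like, glutamatergic-like, astrocyte-like and oligodendrocyte-like lay within 1 SD of each other.

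**Figure D2:**
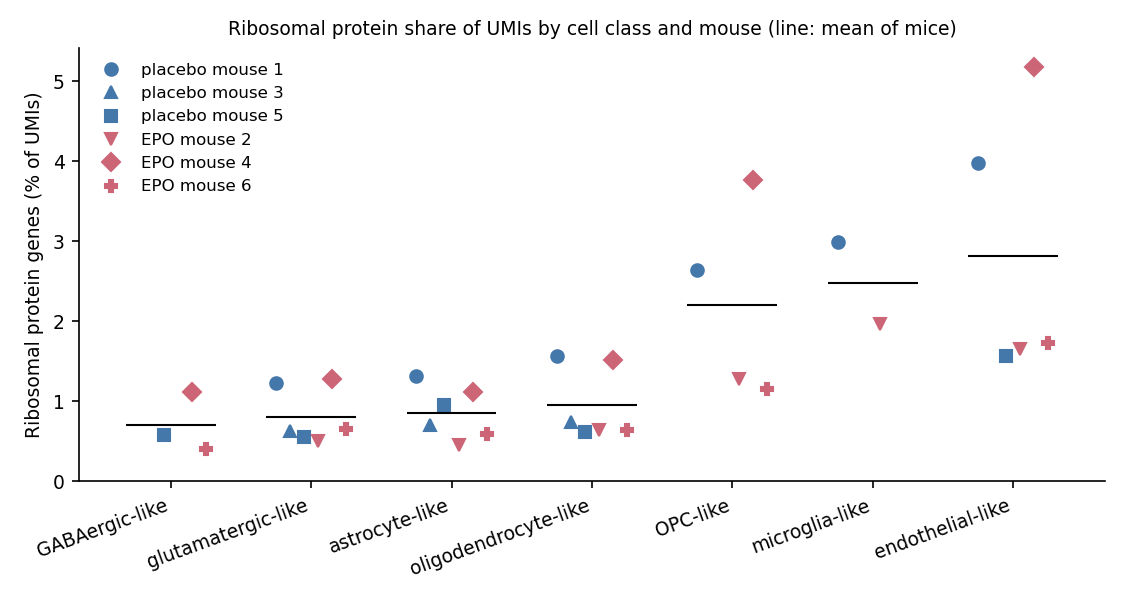
The vertical axis gives ribosomal protein UMIs in percent of all UMIs of a class in 1 mouse, for mice with at least 5 cells of the class. Symbols are mice, blue for placebo and red for EPO, and the line is their mean. Mice 1 and 4 lie above the other mice in every class in which they appear, and the means of OPC-like, microglia-like and endothelial-like cells lie above those of the other classes.

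Comparing classes within a mouse keeps both sides of a ratio in the same library. The gap differed by gene, so in mice 1 and 4 the ratio rests on another mix of genes than in the other mice. Endothelial-like cells exceeded glutamatergic-like cells 3.16-fold (geometric mean, range 2.61 to 4.04, higher in 5 of 5 mice), oligodendrocyte-like cells 2.74-fold (2.54 to 3.43, 5 of 5) and OPC-like cells 1.42-fold (1.30 to 1.51, 4 of 4). OPC-like over glutamatergic-like cells was 2.30-fold (1.75 to 2.94, 4 of 4). The ranges of these 4 ratios stayed above 1, but 4 or 5 mice cannot take a two-sided exact sign-flip permutation test below 0.125 or 0.0625, and 14 pairs of classes were compared. The exact permutation p was 0.0625 for the first 2 ratios and 0.125 for the last 2, each at the smallest value the number of mice allows, and 0.219 after Benjamini-Hochberg adjustment, so none of the 14 pairs passed 5%. Oligodendrocyte-like over glutamatergic-like cells was 1.16-fold (0.974 to 1.28, higher in 5 of 6 mice, exact permutation p = 0.0625, adjusted 0.219). Astrocyte-like over glutamatergic-like cells was 1.06-fold (0.875 to 1.70, 3 of 6 mice, exact permutation p = 0.75), and GABAergic-like over glutamatergic-like cells was 0.819-fold (0.608 to 1.04, higher in 1 of 3 mice, exact permutation p = 0.5). With the genes of at most 3 copies the ratios were 3.38-fold, 2.29-fold, 1.27-fold, 1.18-fold and 0.865-fold for endothelial-like, OPC-like, oligodendrocyte-like, astrocyte-like and GABAergic-like over glutamatergic-like cells, with the oligodendrocyte-like cells higher in 6 of 6 mice (exact permutation p = 0.031, adjusted 0.194). The classes with high shares were also the shallower ones, with medians of 2410 to 2821 UMIs per cell in microglia-like, endothelial-like and OPC-like cells and 5233 in glutamatergic-like cells. Astrocyte-like cells, at a median of 3079 UMIs, did not share the high share.

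Gene by gene, endothelial-like cells stood furthest from glutamatergic-like cells. UMIs were summed per mouse and class and tested by edgeR's quasi-likelihood test with the mouse as block, with Benjamini-Hochberg adjustment over all genes tested. Of 69 ribosomal protein genes that passed the filter on low counts, 61 were higher (all genes tested: 15.5%) and 1, Rpl24, was lower (32.3%). Without the filter, 43 of 84 were higher (7.04%) and 1 was lower (18.2%). The genes that passed the filter had a median log2 fold change of 1.47, against -0.56 over all genes tested. By subunit, 36 of 41 tested Rpl genes and 25 of 28 tested Rps genes were higher, at medians of 1.40 and 1.51, and the difference between the subunits was not tested. Without mice 1 and 4, whose removal leaves 3 mice, 15 of 55 were higher (all genes tested: 10.0%), 49 of 55 were positive and the median was 1.14 against -0.75 over all genes. Leaving out mouse 1 alone gave 39 of 57 (13.3%).

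The largest of these differences in endothelial-like cells was that of Rps20, a protein of the 40S head. Rps20 had 497, 372, 699, 453 and 296 CPM in endothelial-like cells of mice 1, 2, 4, 5 and 6, and 88.1, 43.8, 64.2, 50.6 and 64.4 CPM in glutamatergic-like cells of the same mice. The groups did not overlap, and the log2 fold change was 2.65 ± 0.33 (SE; edgeR adjusted p = 1.8e-14). Rpl13a, a 60S protein that can leave the ribosome to silence mRNAs, had 1133, 979, 1330, 1458 and 1183 CPM against 267, 215, 268, 267 and 294 CPM (log2 fold change 1.91 ± 0.27, edgeR adjusted p = 2.5e-11). Rpl22, a 60S protein with a paralog among the rows left out, had 234.9 to 805 CPM against 66.4 to 111 CPM (2.13 ± 0.31, edgeR adjusted p = 1.3e-10). Rps9, which lies at the mRNA entry side of the 40S subunit, had 537 to 1308 CPM against 187 to 203 CPM in the same 5 mice (1.78 ± 0.28, edgeR adjusted p = 7.7e-10). In all 4 genes every endothelial-like value exceeded every glutamatergic-like value. Rpl38, known for its role in patterning of the skeleton, was higher by 2.34 ± 0.38 on the log2 scale, Rpl18 by 2.24 ± 0.38, Rps19 by 1.94 ± 0.33, Rpl26 by 1.82 ± 0.31, Rpl13 by 1.91 ± 0.33 and Rps14 by 1.61 ± 0.28. Without mice 1 and 4, Rpl26 (1.15 ± 0.53) and Rpl13 (1.38 ± 0.69) no longer passed, and the other 8 of these 10 genes did.

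The genes listed by role are given next for endothelial-like cells. The stalk genes Rplp0, Rplp1 and Rplp2, whose proteins recruit elongation factors, had log2 fold changes of 2.02 ± 0.36, 1.40 ± 0.28 and 0.93 ± 0.31, all with an edgeR adjusted p of at most 0.0077. Without mice 1 and 4, Rplp0 still passed (1.43 ± 0.56, edgeR adjusted p = 0.036), and Rplp1 (0.98 ± 0.42) and Rplp2 (0.42 ± 0.50) did not. Rps6 (1.73 ± 0.43), the Mdm2 binders Rpl5 (1.24 ± 0.37) and Rpl11 (1.01 ± 0.42), the ubiquitin fusion Rps27a (1.77 ± 0.39) and the X-linked Rpl10 (1.47 ± 0.50) passed over all 5 mice, and these calls rested on mice 1 and 4. Rps6 had 755 and 609 CPM in endothelial-like cells of mice 1 and 4 and 0, 0 and 59.2 CPM in mice 2, 5 and 6, against 173 and 178 CPM and 2.82 to 6.09 CPM in glutamatergic-like cells. Rpl5 had 835 and 857 CPM against 180 and 187 CPM in mice 1 and 4, but 19.6, 0 and 0 CPM against 48.0, 39.2 and 60.1 CPM in mice 2, 5 and 6, so it was higher in 2 of 5 mice. Without mice 1 and 4 Rpl5 stood at -2.43 ± 1.36 (edgeR adjusted p = 0.16), and Rps6, Rpl11, Rps27a and Rpl10, each higher in 3 of 5 mice, did not reach the filter. The X-linked genes Rps4x (2.09 ± 0.36) and Rpl39 (1.22 ± 0.49) were higher in 5 of 5 mice, and without mice 1 and 4 they had 1.03 ± 0.72 and 1.06 ± 0.92 and did not pass. Of the genes mutated in Diamond-Blackfan anemia, an inherited failure of red cell formation, Rps19, Rps24 (1.503 ± 0.30), Rps26 (1.52 ± 0.33), Rps10 (1.84 ± 0.35), Rps7 (1.03 ± 0.36) and Rpl35a (1.33 ± 0.37) were higher. Of these, Rps19 (2.08 ± 0.51), Rps24 (1.40 ± 0.51) and Rps10 (1.69 ± 0.58) passed without mice 1 and 4 as well, and Rps26 (1.27 ± 0.55), Rps7 (0.85 ± 0.69) and Rpl35a (1.09 ± 0.67) did not. Rps27l, the p53-responsive paralog of Rps27, was higher by 1.62 ± 0.50 and, without mice 1 and 4, had 1.60 ± 0.72 and did not pass. The paralog Rpl36al (0.63 ± 0.44, edgeR adjusted p = 0.24) and Rps19bp1, which is no ribosomal protein (-0.99 ± 0.66, edgeR adjusted p = 0.21), did not pass. Rpl36a and Rpsa did not reach the filter on low counts in this comparison and were not tested with it.

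OPC-like cells gave fewer calls at a like direction. Of 81 tested ribosomal protein genes, 32 were higher (all genes tested: 9.07%) and Rpl24 was lower (18.6%), and without the filter 6 of 84 were higher (3.54%) and 1 lower (9.17%). The median of the tested genes was 0.97 against -0.37 over all genes, and 78 of the 81 had a positive fold change. Without mice 1 and 4, which leaves 2 mice, 2 of 59 were higher (4.64%), Rpl7a and Rps26, a share near that of all genes. Leaving out mouse 1 alone gave 18 of 73 (7.54%), and leaving out mouse 4 alone gave 9 of 73 (7.19%). The stalk gene Rplp0 had 394, 282, 398 and 299 CPM in OPC-like cells of mice 1, 2, 4 and 6 and 65.3, 67.8, 47.5 and 56.6 CPM in glutamatergic-like cells (2.28 ± 0.41, edgeR adjusted p = 4.5e-07). Rpl13 (1.92 ± 0.37), Rpl7a (2.17 ± 0.46), Rpl18 (1.92 ± 0.45), Rps9 (1.45 ± 0.35) and Rps26 (1.59 ± 0.38) followed. Rps2 (1.33 ± 0.36), Rps18 (1.56 ± 0.42), Rpl27 (1.74 ± 0.48) and Rpsa, which is also known as the laminin receptor (1.64 ± 0.45), were the last of the 10 with the smallest p.

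In oligodendrocyte-like cells the differences were smaller. Of 53 tested, 50 had a positive fold change (all genes tested: 45.7%). Of the same 53, 25 were higher than in glutamatergic-like cells (all genes tested: 29.2%) and 1, Rpl24, was lower (35.8%). Without the filter, 13 of 84 were higher (10.4%) and 3, Rpl12, Rpl24 and Rps4y2, lower (20.4%). Scaling to total UMIs left 13 higher (23.6%) and 2, Rpl24 and Rps19bp1, lower (44.5%) of 53. The number with a positive fold change also depended on the scaling, at 37 of 53 scaled to total UMIs and 38 with DESeq2. Leaving out mouse 4 gave 16 higher of 37 (28.9%), and leaving out mice 1 and 4 gave 11 of 22 (30.7%), with Rpl24 below the filter. The median of the tested genes was 0.42 against -0.13 over all genes and stayed 0.56 above the median of all genes when scaled to total UMIs. Rps9 had 447, 439, 320, 528, 494 and 379.8 CPM in oligodendrocyte-like cells of mice 1, 2, 3, 4, 5 and 6 and 203, 202, 74.9, 187, 203 and 195 CPM in glutamatergic-like cells (1.56 ± 0.17, edgeR adjusted p = 9.1e-13). Rplp0 had 114 to 315 CPM against 47.5 to 90.8 CPM (1.71 ± 0.22, edgeR adjusted p = 2.5e-10), and Rps27l had 54.7 to 152 CPM against 23.4 to 44.9 CPM (1.84 ± 0.29, edgeR adjusted p = 8.9e-08). In these 3 genes no oligodendrocyte-like value fell below a glutamatergic-like one. Rpl18 (1.47 ± 0.26), Rps3 (0.94 ± 0.17), Rpl7 (1.03 ± 0.19), Rpsa (1.29 ± 0.26) and Rps21 (0.87 ± 0.19) were also higher. Rpsa was higher in only 4 of 6 mice. In mice 1 and 4 it had 342 and 363 CPM against 162 and 174 CPM. In mice 2, 3, 5 and 6 it had 0, 45.7, 41.1 and 11.5 CPM against 7.06, 21.4, 3.82 and 23.5 CPM. By contrast, the stalk genes Rplp1 (0.14 ± 0.18) and Rplp2 (0.08 ± 0.20) and Rps19 (0.0043 ± 0.25) did not pass (edgeR adjusted p of at least 0.52).

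Astrocyte-like cells had few testable genes. Of 20 tested, 6 were higher (all genes tested: 23.7%) and 0 lower (33.8%), while without the filter 0 of 84 were higher (6.31%) and 5, Rpl24, Rpl27a, Rps3a1, Rps6 and Rps7, lower (13.1%). Scaled to total UMIs 2 were higher (15.1%) and 1, Rps3a1, lower (48.8%). Leaving out mouse 3, the smallest library, gave 3 higher of 64 (13.1%), and leaving out mice 1 and 4 gave 2 of 13 (18.9%), Rps9 and Rps14. Without mouse 1 there were 4 of 14 (21.2%) and without mouse 6 there were 4 of 22 (20.9%). The direction of single genes in this class thus rested on the filter and the scaling. Rps9 (1.33 ± 0.27, higher in 6 of 6 mice) and Rps14, a 40S platform protein (1.14 ± 0.25, 6 of 6), stood first, and only these passed under scaling to total UMIs. Rps21 (1.09 ± 0.34), Rplp1 (0.80 ± 0.26), Rpl13a (0.74 ± 0.27) and Rps24 (0.78 ± 0.33) passed in the main test. Ependymal markers were found in this cluster at up to 4914 CPM in sum per mouse, with 3 of 4 found and Ttr at 0.

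GABAergic-like cells gave no call. Of 69 tested, 0 were higher (all genes tested: 4.14%) and 0 lower (5.57%), with 2, Rpl14 and Rpl35a, at an unadjusted p under 0.05, and without the filter 0 of 84 were called (1.65% higher and 3.06% lower of all genes), as with DESeq2. The lowest p belonged to Rpl14 (-0.92 ± 0.39, edgeR adjusted p = 0.15), Rpl35a (-1.20 ± 0.56), Rplp2 (-0.70 ± 0.37), Rplp0 (-0.97 ± 0.59) and Rpsa (0.82 ± 0.50). Only 3 mice had 5 such cells. Microglia-like cells reached 5 cells in mice 1 and 2 alone and were not tested by gene. There Rps9 had 1132 and 1041 CPM, Rpl13a 849 and 867 CPM, and Rplp0 318 and 434 CPM.

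**Figure D3:**
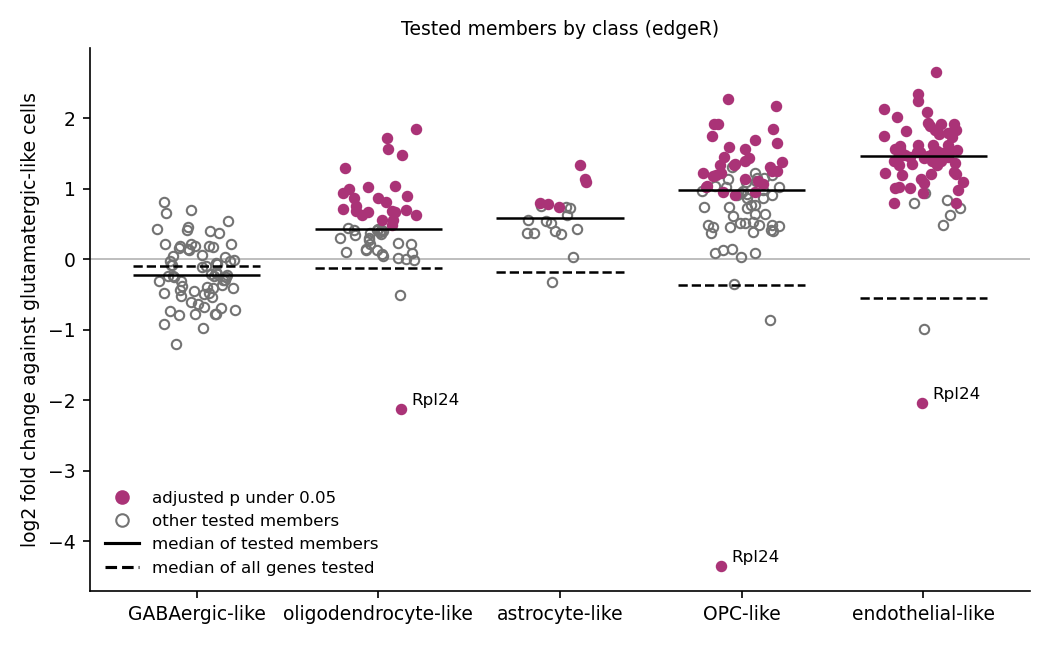
Each point is 1 tested ribosomal protein gene, placed by its log2 fold change between the named class and glutamatergic-like cells (edgeR, paired by mouse). Filled points have an adjusted p under 0.05, the solid line is the median of the tested ribosomal protein genes and the dashed line the median of all genes tested. The solid line lies 2.03 above the dashed one in endothelial-like cells and 0.12 below it in GABAergic-like cells, and Rpl24 lies far below the others in 3 classes.

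Rpl24 ran against the other genes. The row had 121, 76.2, 139, 112, 127 and 139 CPM in glutamatergic-like cells of mice 1 to 6, and 18.2, 20.4, 15.2, 16.5, 0 and 69.1 CPM in oligodendrocyte-like cells (-2.13 ± 0.35, edgeR adjusted p = 1.4e-07). Each oligodendrocyte-like value lay below every glutamatergic-like one. Endothelial-like cells held 6 UMIs of Rpl24 and OPC-like cells 1, which is a ratio to glutamatergic-like cells of 0.280 (95% exact interval 0.102 to 0.612) and of 0.0574 (0.00145 to 0.322) by counting error alone. In astrocyte-like cells the ratio was 0.333 (0.165 to 0.600) and in GABAergic-like cells 0.701 (0.440 to 1.07). The reading of this row is uncertain. Rpl24 lies at chr16:55966275-55971435 (plus strand, GRCm38). The processed transcript Gm28037 on the same strand (chr16:55966343-55980721) overlaps it and runs into Zbtb11 (chr16:55973883-56008913), a zinc finger gene that RefSeq lists as a synonym of Rpl24, and neither Gm28037 nor Zbtb11 has a row of its own in the table. Of 84 ribosomal protein genes with a position, 5 (Rpl13a, Rpl19, Rpl24, Rpl36al and Rps10) share exons with another long gene on their strand.

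Other parts of the translation machinery were set beside these genes. In endothelial-like cells, the ribosome components outside the rule Fau (1.52 ± 0.39) and Gnb2l1, the scaffold Rack1 (1.74 ± 0.33), were higher. Of 15 translation factors and other TOP mRNAs, 8 were higher and 0 lower, among them the elongation factor Eef1a1 (1.26 ± 0.28), the growth protein Tpt1 (1.86 ± 0.34) and the poly(A) binding protein Pabpc1 (1.56 ± 0.29). Of 60 tested genes of the mitochondrial ribosome, which is encoded and built apart, 1 was higher and 5 lower, at a median of -0.44 near that of all genes. Of 15 tested genes of ribosome biogenesis, 0 were higher and 3 lower, with Nop56 at -1.51 ± 0.41. In oligodendrocyte-like cells the counts were 5 higher and 1 lower of 14 TOP mRNAs, 6 higher and 2 lower of 42 mitochondrial ribosome genes and 0 higher and 4 lower of 10 biogenesis genes. Of the S6 kinases and mTOR arm, 0 were higher in either class, with 3 of 8 lower in endothelial-like and 2 of 4 lower in oligodendrocyte-like cells. Of all genes tested, 32.3% were lower and 15.5% higher in endothelial-like cells and 35.8% lower and 29.2% higher in oligodendrocyte-like cells, so the counts of lower biogenesis and S6 kinase genes lie near or below this background or rest on under 10 genes.

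The ribosomal protein share was further asked against the mt- share of a cell, which rises in stressed or broken cells. To keep the relation from being built in, mt- UMIs were left out of the total. Among glutamatergic-like cells, those with at most 10% mt- UMIs had 1.75%, 0.888% and 0.643% ribosomal protein UMIs in the placebo animals and 0.792%, 1.72% and 0.693% in the EPO animals. Those with more than 10% had 0.937%, 0.451% and 0.294% and 0.380%, 0.688% and 0.274%. In each mouse the low mt- cells held the larger share, 2.18-fold on geometric mean (1.87 to 2.53, 6 of 6 mice, exact sign-flip permutation p = 0.031, the smallest that 6 mice allow). The genes with at most 3 copies gave 2.28-fold. Cells of low mt- share were also deeper, with medians of 6224 to 16432 UMIs per mouse against 3021 to 4096.

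**Figure D4:**
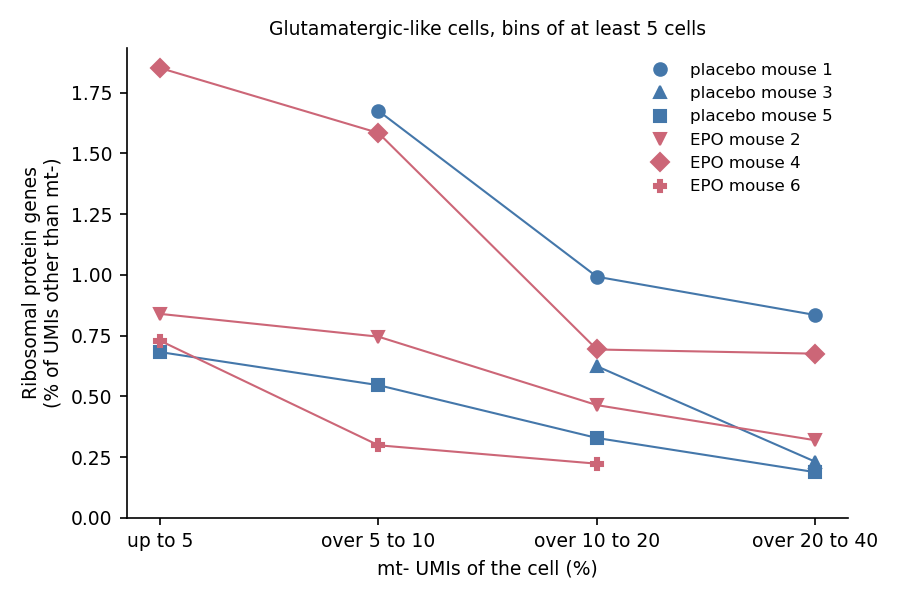
Lines join, for each mouse, the ribosomal protein UMIs in percent of UMIs other than mt- (vertical axis) over bins of the mt- share of the cell (horizontal axis), in glutamatergic-like cells and for bins of at least 5 cells. Blue is placebo and red is EPO. Every line falls from the lowest to the highest bin, in mouse 5 from 0.682% to 0.188%, with mice 1 and 4 above the others.

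Across single glutamatergic-like cells of a mouse, Spearman's rho between the 2 shares was -0.43 to -0.78 (16 to 166 cells per mouse, cells that share library and depth range). In oligodendrocyte-like cells rho was -0.33, -0.50 and -0.15 in the placebo mice and -0.09, -0.17 and -0.24 in the EPO mice. In astrocyte-like cells its sign differed between mice, from -0.56 to 0.50. The glutamatergic-like clusters divided along the same line. Clusters 0 and 5, led by Hpca, Spink8 and Calb1 and by Nts and Slc17a6, held 2.13 to 2.67 times the ribosomal protein share of clusters 1, 2 and 4 within each mouse. In the latter, mt- UMIs were 7.98% to 22.8% against 1.79% to 6.39%, Malat1, a nuclear RNA, took 9.62% to 16.2% against 1.61% to 2.36% of UMIs other than mt-, and the cells were shallower, at medians of 3169 to 4190 against 7998 to 16940 UMIs. Share, depth, mt- and Malat1 thus moved together in all 6 mice, and which of them the others follow was not tested.

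EPO and placebo mice did not differ in the ribosomal protein share beyond the spread between mice. Over all retained cells it was 0.917% ± 0.480 in EPO and 0.952% ± 0.481 in placebo mice (SD, n = 3 each, difference -0.0346 percentage points, exact permutation p = 0.8, smallest possible 0.1). In glutamatergic-like cells it was 0.815% ± 0.412 and 0.806% ± 0.368 (exact permutation p = 1.0), in oligodendrocyte-like cells 0.932% ± 0.503 and 0.976% ± 0.517 (exact permutation p = 0.7) and in astrocyte-like cells 0.725% ± 0.351 and 0.990% ± 0.307 (exact permutation p = 0.4, adjusted over these 3 classes 1.0). The groups overlapped in each case, and each held 1 of the 2 high libraries. With the genes of at most 3 copies the spread was narrower, at 0.381% ± 0.0653 and 0.394% ± 0.0521 over all cells (exact permutation p = 0.7) and 0.333% ± 0.0680 and 0.327% ± 0.0318 in glutamatergic-like cells (exact permutation p = 0.9). The D number changed the sign. The EPO mouse of D1 minus the mean of its placebo mice was -0.527 percentage points, while in D2 the mean of its EPO animals minus its placebo mouse was 0.477 percentage points, with 1 of the 2 high libraries in the larger group each time. The design cannot reach p under 0.05, and a difference was not detectable with these mice.

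**Figure D5:**
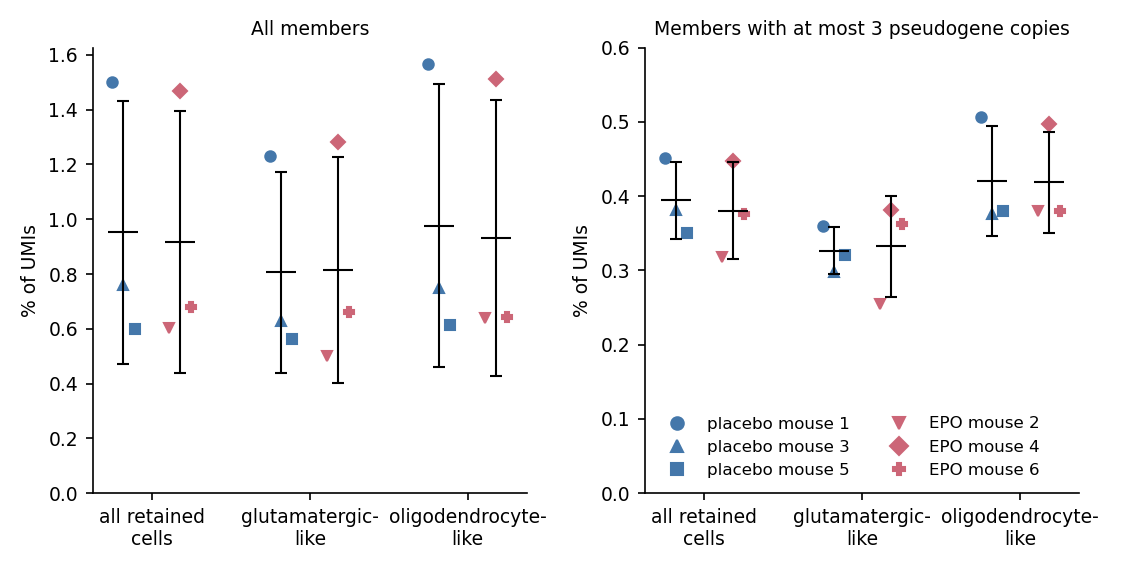
Ribosomal protein UMIs in percent of all UMIs per mouse, for 3 placebo (blue) and 3 EPO mice (red), over all retained cells and 2 classes, with mean and SD in black. The left panel takes all ribosomal protein genes and the right panel the 23 with at most 3 pseudogene copies. The groups overlap in each pair, and the spread is smaller in the right panel.

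By gene, no ribosomal protein gene was called for EPO. Over all retained cells edgeR called 0 of 10043 genes (0%), with 127 at an unadjusted p under 0.05, while DESeq2 called 1 and limma 0. None of the 76 tested ribosomal protein genes was called by any of the 3 tools, and none had an unadjusted edgeR p under 0.05. Their median log2 fold change was -0.13 against -0.0053 over all genes, and 12 of the 76 were positive. With the D number as a term the median was 0.071, and without the barcodes shared by mice 1 and 4 it was 0.021, with 42 of 76 positive in both, so its sign depends on these choices. In glutamatergic-like cells edgeR called 0 of 8522 genes (0%), with 158 at an unadjusted p under 0.05, and DESeq2 and limma called 0. There the 72 tested ribosomal protein genes had a median of -0.08, and 21 were positive, against a median of 0.030 and 41 positive with the D number as a term. The median followed the libraries. Without placebo mouse 1 it was 0.62 and without EPO mouse 4 it was -0.71 over all retained cells, and without both it was -0.08.

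The ribosomal protein genes with the smallest p for EPO are given with their values, none of which passed. Rpl22 had 145, 161 and 119 CPM in the placebo animals and 86.2, 116 and 114 CPM in the EPO animals, so the groups did not overlap (-0.47 ± 0.24, unadjusted p = 0.081, edgeR adjusted p = 1.0). Rplp0 had 97.7, 132 and 110 CPM and 98.9, 81.1 and 70.7 CPM, with overlap (-0.46 ± 0.27). Rps19bp1 (-0.32 ± 0.28), Rps4y2 (0.30 ± 0.27) and Rps27l (-0.32 ± 0.30) came next. In glutamatergic-like cells they were Rplp0 (-0.49 ± 0.27), Rps27l (-0.51 ± 0.31), Rpl22 (-0.31 ± 0.25), Rps26 (-0.37 ± 0.32) and Rps20 (-0.35 ± 0.30). For genes with a wide library gap the standard errors were large, as for Rps27a (-0.10 ± 1.14) and Rpl11 (-0.17 ± 1.17) over all cells, above 1, which is the size of a 2-fold change. Other lists gave 0 calls too, over further ribosome components, 15 TOP mRNAs, 74 mitochondrial ribosome genes, 21 biogenesis genes and 13 genes of the S6 kinase and mTOR arm.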

How the data were processed

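Drop-seq libraries of CA1 cells from 3 placebo and 3 EPO mice were used. The authors deposited 1 table of UMI counts, not normalized, with 20234 genes and 6000 barcodes, 1000 per mouse. The submitters' processing notes name bcl2fastq 2.15, STAR 2.4.0 and mm10, and how reads with several matches were treated is not given in the sources used here. In 7771 genes the values of at least 1 mouse were missing, and these were set to 0. The ribosomal protein genes, the other gene lists and the tests were chosen with earlier results of these data known.

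Retained cells had over 1000 and up to 8000 genes and up to 40% mt- UMIs. Doublets were not called and stayed in. Cells were normalized to 10000, integrated between treatments (Seurat 5.3.0 in R 4.3.3, 1291 variable genes, 20 dimensions) and clustered at resolution 1, with 112 ribosomal protein and mt- genes left out, and classes were named from marker lists. UMIs were then summed per mouse and class. Genes were tested by edgeR 4.0.16 (quasi-likelihood, TMM scaling, filterByExpr, Benjamini-Hochberg adjustment at 5%), with the mouse as block between classes. DESeq2 1.42.0 and limma 3.58.1 (log2 CPM) were alternatives. Shares were compared by exact two-sided permutation tests over mice (scipy 1.17.1). Pseudogene copies were found with BLAST 2.17.0. Depth per mouse, 204479 to 1948490 UMIs, sets the counting error, and intervals cover that error alone.

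Tested on simulated counts with 200 changed genes, the EPO comparison over all cells (9678 genes, 3 simulations) recovered at least 73% of 4-fold and 2% of 2-fold changes, and the oligodendrocyte-like comparison (4298 genes) at least 87% and 70%. With no gene changed it made at most 1 and 0 calls. The text names up to 10 ribosomal protein genes per direction with the smallest adjusted p in each test, or the 5 with the smallest p where none passed, the 5 highest and 5 lowest levels, and genes listed by role, of which a few are not reported here. Genes named for a small count under another setting were chosen after their values were seen. So were genes shown for the gap between libraries. Alternatives were another scaling, filter, tool, cell limit, resolution and class definition, the D number, and leaving out each mouse. The genes with at most 3 copies, the data without shared barcodes and without mice 1 and 4, and the scaling, filter and leave-out alternatives for astrocyte-like, OPC-like and endothelial-like cells were added after seeing the data.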

Additional observations from a re-analysis of the deposited data

Results flagged for a closer look

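The EPO effect on the ribosomal protein share had opposite signs in the D numbers 1 and 2, and the difference between them was not tested. Over all retained cells, EPO minus placebo was -0.527 percentage points within D1 and 0.477 within D2. In glutamatergic-like cells it was -0.427 and 0.411 percentage points. The larger value came each time from the treatment that held mouse 1 or mouse 4.

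The 23 rows of ribosomal protein pseudogenes with -ps in their symbol, which no comparison uses, were detected in every mouse, which is a description and no test. They took 137 CPM in mouse 1, 122 in mouse 3 and 10.8 in mouse 5, all placebo, and 42.1 CPM in mouse 2, 70.3 in mouse 4 and 49.7 in mouse 6, all EPO, from 14 to 154 UMIs, where 3 UMIs would be 1.54 to 14.7 CPM. Mouse 3, which was not high in the ribosomal protein genes, lay next to mouse 1 here.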

How the results depend on the processing

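Of 453 values under alternatives for the main comparisons 387 were held as unchanged. For counts of called genes this meant a count equal to the main one or within a fixed factor of it. Counts for EPO with no ribosomal protein gene called in any setting were among these. For the other values it meant the same direction and side of the threshold, or a move by less than the spread. Of 563 values for single genes 518 kept their direction and side of the threshold, with 42 no longer passing and 3 reversed. The cause of a change was not tested unless stated. For the EPO difference in share over all cells (-0.0346 percentage points), the sign turned without the barcodes that mice 1 and 4 share (0.0483) and within D2 (0.477), and leaving out 1 mouse gave -0.311 (without mouse 4) to 0.239 (without mouse 1). In glutamatergic-like cells (0.00916) it turned without mt- UMIs (-0.00774), as a mean of single cells (-0.0432), at no more than 10% mt- UMIs (-0.0220), without mice 1 and 4 (-0.0127), within D1 (-0.427) and with the D number as a term (-0.00820), and leaving out 1 mouse gave -0.224 to 0.221. The astrocyte-like over glutamatergic-like ratio (0.0906 on the log2 scale) was -0.105 with classes from marker UMIs and -0.0445 to 0.147 leaving out 1 mouse. The low over high mt- ratio (1.12 on the log2 scale) was 0.820 at a boundary of 5% and 1.33 at 20%, 1.13 without mice 1 and 4 and 1.08 to 1.17 leaving out 1 mouse, where fewer than 6 mice cannot reach 5%. Rps26, with EPO in glutamatergic-like cells, turned to 0.0023 without mice 1 and 4 and to 0.19 without mouse 1, with -0.74 (without mouse 5) the lowest when 1 mouse was left out, and Rpl13a in astrocyte-like cells to -0.014 without the filter.

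Genes called for EPO over all cells were 1 with DESeq2, 52 without the filter and 1 with the D number as a term. In glutamatergic-like cells they were 11 without the filter and 0 to 7 leaving out 1 mouse (7 without mouse 5). No ribosomal protein gene was among any of these. In oligodendrocyte-like cells ribosomal protein genes higher were 13 under both scalings to total UMIs, 13 without the filter, 16 with DESeq2, 11 without mice 1 and 4 and 16 to 29 leaving out 1 mouse, and those lower were 2, 2, 3 and, without mice 1 and 4, 0, and 1 to 2 leaving out 1 mouse. All genes called there were 5643 without the filter and 1388 without mice 1 and 4, against 3025. In GABAergic-like cells they were 416 with DESeq2, 385 without mice 1 and 4 and 385 to 777 leaving out 1 mouse, against 743. In astrocyte-like cells ribosomal protein genes higher were 2 under both scalings and without mice 1 and 4, 0 without the filter and 3 to 7 leaving out 1 mouse, and those lower were 1 scaled to total UMIs, 5 without the filter and 0 to 1 leaving out 1 mouse. All genes called were 3568 without the filter and 767 to 2247 leaving out 1 mouse, against 896. In OPC-like cells ribosomal protein genes higher were 47 scaled to total UMIs, 49 scaled without mt- UMIs, 6 without the filter, 2 without mice 1 and 4 and 9 to 34 leaving out 1 mouse, and all genes called without mice 1 and 4 were 839, against 1797. In endothelial-like cells all genes called without the filter were 4579, against 2924, and ribosomal protein genes higher were 15 without mice 1 and 4 and 39 to 70 leaving out 1 mouse. Fewer ribosomal protein genes passed the filter without mice 1 and 4 in each class comparison, as 55 against 69 in endothelial-like cells. Over all genes, the number tested fell in oligodendrocyte-like (2068 against 4656) and astrocyte-like cells (1462 against 1559). That number rose in GABAergic-like (7837 against 7650), OPC-like (6893 against 6503) and endothelial-like cells (6345 against 6114). Scaling to total UMIs moved the median of all genes by -0.28 in oligodendrocyte-like, -0.51 in astrocyte-like, 0.29 in OPC-like and 0.27 in endothelial-like cells on the log2 scale. No paired analysis was possible for EPO because the placebo and EPO mice share no replicate numbers. Depth limits the classes of few cells and the genes near 0 CPM in 4 of 6 libraries most.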
